A study of Rattus norvegicus with 12 samples.

Results

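Oligodendrocyte precursor cells (OPCs) are the dividing glial cells of the brain that mature into myelinating oligodendrocytes, and the genes described here carry glucose into such cells and break it down. The 10 genes were Slc2a1 for the glucose transporter GLUT1, Hk1, Gpi, Pfkl, Pfkm, Pfkp, Aldoa, Pgk1 and Eno1 for enzymes of glycolysis, and Ldha for a subunit of lactate dehydrogenase. They were picked out by symbol, each symbol had 1 row, and they make up 10 of the 30562 genes in the deposited count table. Primary OPCs were grown from the cerebral cortex of wild-type Sprague-Dawley rats of postnatal day 1 or 2, and the study asked how a mild lowering of oxygen changes them. Bulk RNA-seq compared 6 libraries of cells held at 5% FiO2, called mild-hypo-OPCs, with 6 libraries of cells held in room air, called standard OPCs. The labels give the exposure as 6 hours and the methods of the study as 6 days. The labels do not state that libraries came from separate cultures, and a legend in the paper counts 3 biological replicates a group where 6 libraries a group were deposited. All 12 were used as separate samples, so the errors measure the spread between libraries, which may be technical, and they are too small if some libraries share a culture.

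Glycolysis splits glucose into pyruvate in the cytosol and yields ATP without oxygen. Glucose enters through GLUT transporters, hexokinase traps it as glucose 6-phosphate, phosphofructokinase makes the committed step, and lactate dehydrogenase turns pyruvate into lactate and regenerates NAD+. Most of these genes are textbook targets of hypoxia-inducible factor, which binds promoters at a short DNA core, and oligodendrocytes are known to pass lactate to the axons they wrap.

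Of the 10 genes, 5 were higher and 0 were lower after mild hypoxia at an adjusted p under 0.05 (edgeR's quasi-likelihood test, Benjamini-Hochberg over 8938 genes). Over all genes tested, 7.00% were called higher and 17.0% lower. The 5 were the 3 phosphofructokinase genes Pfkl, Pfkp and Pfkm, the hexokinase gene Hk1 and the enolase gene Eno1. Slc2a1, Gpi, Aldoa, Pgk1 and Ldha did not pass. All 10 fitted differences were above 0, as were 4433 of the 8938 over all genes tested. Of 9 other glycolysis enzymes tested, 3 lay above 0 and 6 below. The median log2 fold change of the 10 genes was 0.26 against -0.00 over all genes tested, and the largest fold was 1.56. The 10 genes were chosen with earlier results of these data known. Single calls depended on the libraries and on the scaling, and the total count differed between the groups without overlap, so that depth and condition cannot be told apart. With the log2 total count as a covariate, 0 of the 10 were called and 2 had an unadjusted p under 0.05 (edgeR). That fit called 0 of the 8938 genes higher and 43 lower, with 217 higher and 488 lower at an unadjusted p under 0.05.

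The promoters of 4 genes are shown because they span the range of the measured differences: Pfkl and Pfkp had the largest differences, Slc2a1 stood just outside the threshold, and Ldha, a textbook hypoxia target, had the smallest. Each is the stretch of 250 bases before the RefSeq transcription start, read on the gene's strand in assembly GRCr8, which is not the assembly of the counts. The windows lie at chr20:10663715-10663964 (Pfkl), chr17:68639563-68639812 (Pfkp), chr5:138002272-138002521 (Slc2a1) and chr1:106507842-106508091 (Ldha), all on the plus strand, upstream of the annotated transcripts. Capitals mark ACGTG, a form of the hypoxia response element core, or CACGT where it lies on the other strand.
Pfkl: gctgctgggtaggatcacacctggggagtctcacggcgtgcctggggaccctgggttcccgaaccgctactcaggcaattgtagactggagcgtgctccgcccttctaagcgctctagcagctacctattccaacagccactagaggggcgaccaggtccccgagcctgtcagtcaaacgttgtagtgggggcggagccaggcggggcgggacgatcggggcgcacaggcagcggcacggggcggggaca
Pfkp: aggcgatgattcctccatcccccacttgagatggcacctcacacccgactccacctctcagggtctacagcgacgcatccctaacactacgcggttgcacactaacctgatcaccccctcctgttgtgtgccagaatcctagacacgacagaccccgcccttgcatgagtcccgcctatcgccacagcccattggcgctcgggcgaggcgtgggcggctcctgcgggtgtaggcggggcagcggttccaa
Slc2a1: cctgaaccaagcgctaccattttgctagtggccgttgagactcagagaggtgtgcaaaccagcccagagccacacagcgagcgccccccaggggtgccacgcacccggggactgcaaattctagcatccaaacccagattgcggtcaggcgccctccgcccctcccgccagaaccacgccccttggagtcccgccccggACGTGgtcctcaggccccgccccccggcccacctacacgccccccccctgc
Ldha: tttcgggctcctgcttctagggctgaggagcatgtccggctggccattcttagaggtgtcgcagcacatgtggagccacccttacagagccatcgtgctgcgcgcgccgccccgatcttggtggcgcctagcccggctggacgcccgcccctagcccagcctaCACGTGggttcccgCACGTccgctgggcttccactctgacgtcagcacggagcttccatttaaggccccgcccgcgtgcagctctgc

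The Ldha window held 3 copies of ACGTG, of which 2 overlap in CACGTG, and the Slc2a1 window held 1, 51 bases before the start. The windows of Pfkl and Pfkp held 0 copies of ACGTG. Only ACGTG was searched, and GCGTG, another form of the core, occurs on either strand in each window shown. RefSeq gave a promoter for 9 of the 10 genes, with 13 starts in all. Of these 13 windows, 5 held ACGTG, each of a different gene: Slc2a1, Hk1, Pfkm, Aldoa and Ldha. No match was found for Gpi or for the 2 starts of Eno1. Pgk1 was not matched. Of 33469 RefSeq promoter windows of the same length, 16.6% held ACGTG on either strand and 1.26% held it 3 or more times. These matches describe the letters in the windows and say nothing of binding.

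Levels are given as CPM, the counts per 1e+06 counts of a library, scaled by edgeR's TMM factors, and only the same gene is compared between groups, since no transcript lengths enter the values. Slc2a1 (ENSRNOG00000007284) encodes the GLUT1 transporter. It ran from 48.3 through a median of 53.2 to 63.3 CPM in the libraries from mild hypoxia, against 29.4, 42.9 and 56.2 CPM in those from room air. The groups overlapped, and the standard OPC libraries were the more widely spread. The log2 fold change was 0.33 (standard error 0.13, 95% interval 0.06 to 0.59), with an adjusted p of 0.0671 from edgeR. DESeq2 gave an adjusted p of 0.0487, so that Slc2a1 lay on either side of the threshold depending on the tool. It also passed without standard OPC replicate 1 (log2 fold change 0.45, edgeR adjusted p = 0.0103).

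Hk1 (ENSRNOG00000046891), the hexokinase of most brain cells, was higher in mild-hypo-OPCs. Its levels were 103.0, 112.9 and 122.8 CPM (lowest, median and highest) in mild-hypo-OPCs and 72.0, 92.9 and 114.6 CPM in standard OPCs. A single standard OPC library reached into the range of the mild-hypo-OPCs, where the others lay below all of them. The log2 fold change was 0.29 (standard error 0.09, edgeR adjusted p = 0.0289). With the total count as a covariate it was -0.03, so for this gene the direction itself depended on the treatment of depth. The call was also lost without standard OPC replicate 4, 5 or 6 (edgeR adjusted p = 0.0520, 0.0677 and 0.0680). Gpi (ENSRNOG00000023150) encodes glucose-6-phosphate isomerase, the next enzyme of the pathway. Its levels of 183.7, 202.1 and 219.4 CPM in mild-hypo-OPCs overlapped with 152.4, 181.1 and 205.3 CPM in standard OPCs. The log2 fold change of 0.17 had an interval of -0.00 to 0.34 and did not pass (edgeR adjusted p = 0.145).

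Phosphofructokinase catalyses the committed step, and its subunits, named after liver, muscle and platelet, assemble into tetramers. All 3 subunit genes were higher in mild-hypo-OPCs. Pfkl (ENSRNOG00000001214), the liver-type subunit, had 36.0, 36.8 and 40.2 CPM in mild-hypo-OPCs, against 13.3, 25.6 and 30.6 CPM in standard OPCs. Every mild-hypo-OPC library lay above every standard OPC library, and the spread was much wider in standard OPCs, whose Pfkl levels rested on 24 to 80 counts a library. With means of 37.4 ± 1.64 CPM after mild hypoxia and 23.6 ± 6.29 CPM in room air (SD, n = 6), Pfkl differed by 0.64 on the log2 scale (standard error 0.14, edgeR adjusted p = 0.00204). Pfkp (ENSRNOG00000017163), the platelet-type subunit, had 23.6, 28.3 and 31.3 CPM in mild-hypo-OPCs, against 15.6, 19.6 and 22.2 CPM in standard OPCs. Again the groups did not overlap, with 17 to 48 counts a library in standard OPCs. Its log2 fold change was 0.52 (standard error 0.11, edgeR adjusted p = 0.00298). Over all genes tested, 2.94% had every mild-hypo-OPC library above every standard OPC library, and Pfkl and Pfkp were the 2 of the 10 genes that did.

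Pfkm (ENSRNOG00000057988), the muscle-type subunit, had 39.1, 47.1 and 49.0 CPM in mild-hypo-OPCs, against 30.6, 35.7 and 43.5 CPM in standard OPCs. The groups overlapped at the low end of the mild-hypo-OPCs. Pfkm differed by 0.32 on the log2 scale (standard error 0.10, edgeR adjusted p = 0.0284). When each of the 12 libraries was left out in turn, Pfkl and Pfkp were called every time and Pfkm 9 times, being lost without standard OPC replicate 2, 3 or 5 (edgeR adjusted p = 0.0597, 0.0743 and 0.0632). In the libraries numbered 1 to 3 alone, none of the 3 passed with edgeR (adjusted p = 0.0809 for Pfkl, 0.192 for Pfkp and 0.127 for Pfkm), at log2 fold changes of 0.64, 0.38 and 0.40. In those numbered 4 to 6, Pfkl and Pfkp passed at 0.67 and 0.71, and Pfkm did not at 0.25. With the total count as a covariate, Pfkl and Pfkp both stood at 0.53 and did not pass (edgeR adjusted p = 0.645 and 0.576). That fit called 0 genes higher among all tested.

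The balance among the phosphofructokinase subunits was not shown to differ. Pfkl took 31.4% to 37.3% of the phosphofructokinase counts after mild hypoxia and 20.2% to 34.7% in room air, shares of reads that are not corrected for transcript length. The log2 ratio of Pfkl to Pfkm within a library was higher by 0.39 in mild-hypo-OPCs (standard error 0.19, two-sided exact permutation test over 6 against 6 libraries, adjusted p = 0.136 over 7 ratios). The ratio of Pfkl to Pfkp differed by 0.18 (standard error 0.24, exact permutation adjusted p = 0.524), and that of Pfkm to Pfkp by -0.21 (standard error 0.16, exact permutation adjusted p = 0.312). Without standard OPC replicate 3, the Pfkl to Pfkp difference was -0.01.

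**Figure D1:**
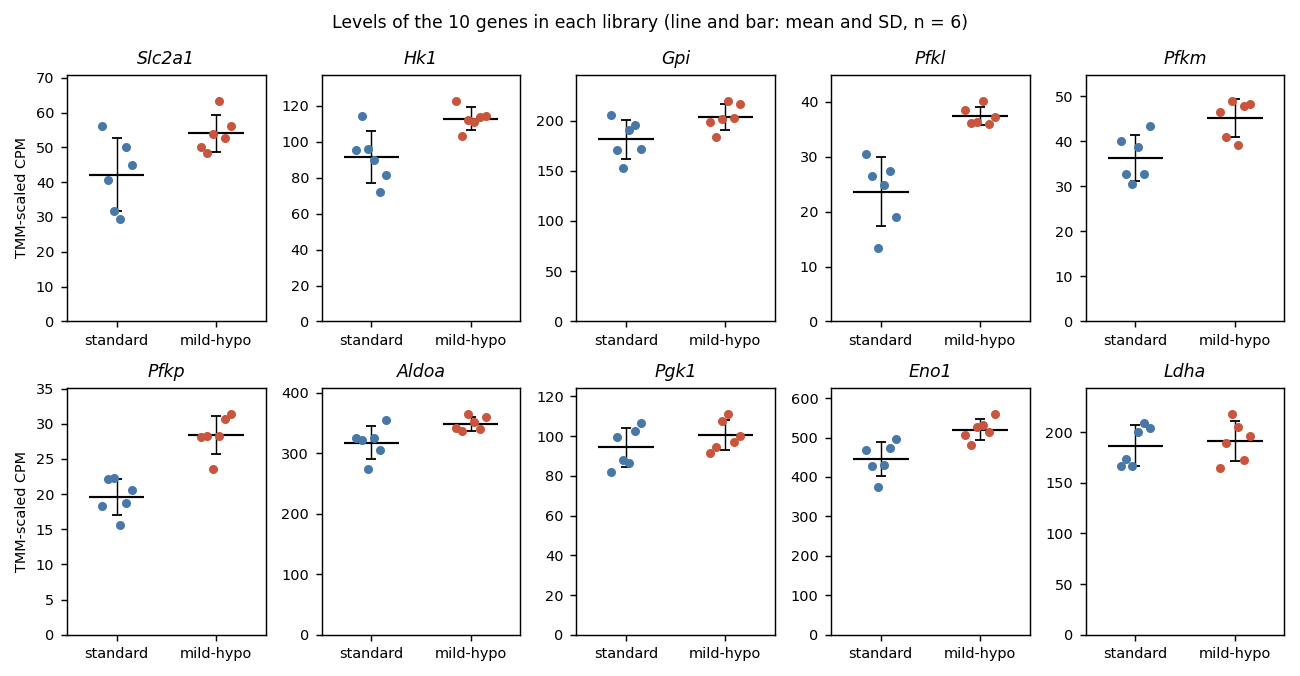
TMM-scaled CPM (vertical axes, from 0) of the 10 genes in each of the 6 standard OPC and 6 mild-hypo-OPC libraries, with the mean and SD of each group. The groups are fully apart in Pfkl and Pfkp, and they overlap in the other 8 genes, most closely in Pgk1 and Ldha.

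Aldoa, Pgk1 and Eno1 act in the lower part of the pathway. Aldoa (ENSRNOG00000052802), the aldolase that cleaves fructose 1,6-bisphosphate, had 337.1, 346.4 and 364.4 CPM in mild-hypo-OPCs, against 273.6, 323.5 and 355.7 CPM in standard OPCs. The groups overlapped in their upper ranges, and the log2 fold change of 0.14 (interval -0.02 to 0.29) did not pass with edgeR (adjusted p = 0.191). Pgk1 (ENSRNOG00000058249), phosphoglycerate kinase, makes the first ATP of the pathway. Its levels of 91.6, 98.8 and 111.0 CPM in mild-hypo-OPCs lay largely within the same range as 82.2, 93.8 and 106.9 CPM in standard OPCs. Pgk1 differed by 0.09 on the log2 scale, with an interval of -0.08 to 0.27 (edgeR adjusted p = 0.458).

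Eno1 (ENSRNOG00000017895), the enolase that forms phosphoenolpyruvate, was higher in mild-hypo-OPCs. Its levels were 480.8, 520.3 and 559.0 CPM there and 373.7, 449.7 and 495.4 CPM in standard OPCs, with a small overlap. The difference of 0.22 on the log2 scale (standard error 0.08, edgeR adjusted p = 0.0442) was close to the threshold, and it was called 6 times when each of the 12 libraries was left out in turn. It was lost without mild-hypo-OPC replicate 3, 4 or 6 (edgeR adjusted p = 0.0516, 0.0533 and 0.0519) and without standard OPC replicate 2, 3 or 4 (0.0680, 0.102 and 0.0773). The table also lists 3 rows of Eno1 pseudogenes, which together held 2.46% to 3.70% as many counts as Eno1, and reads shared with them could be split by the counting. The other 9 genes had 0 pseudogene rows named after them.

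Ldha (ENSRNOG00000013009) encodes the lactate dehydrogenase subunit that favours lactate formation. Its levels were 165.0, 192.9 and 217.7 CPM in mild-hypo-OPCs, against 166.7, 186.9 and 208.6 CPM in standard OPCs, almost the same range in both groups. Ldha differed by 0.04 on the log2 scale, with an interval from -0.15 to 0.22 (edgeR adjusted p = 0.799), which leaves room for a change of either sign. In the libraries numbered 4 to 6 alone it was -0.09. Ordered by fitted difference, the genes ran Pfkl, Pfkp, Slc2a1, Pfkm, Hk1, Eno1, Gpi, Aldoa, Pgk1 and Ldha. The 95% intervals of each pair of neighbours in that order overlapped.

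**Figure D2:**
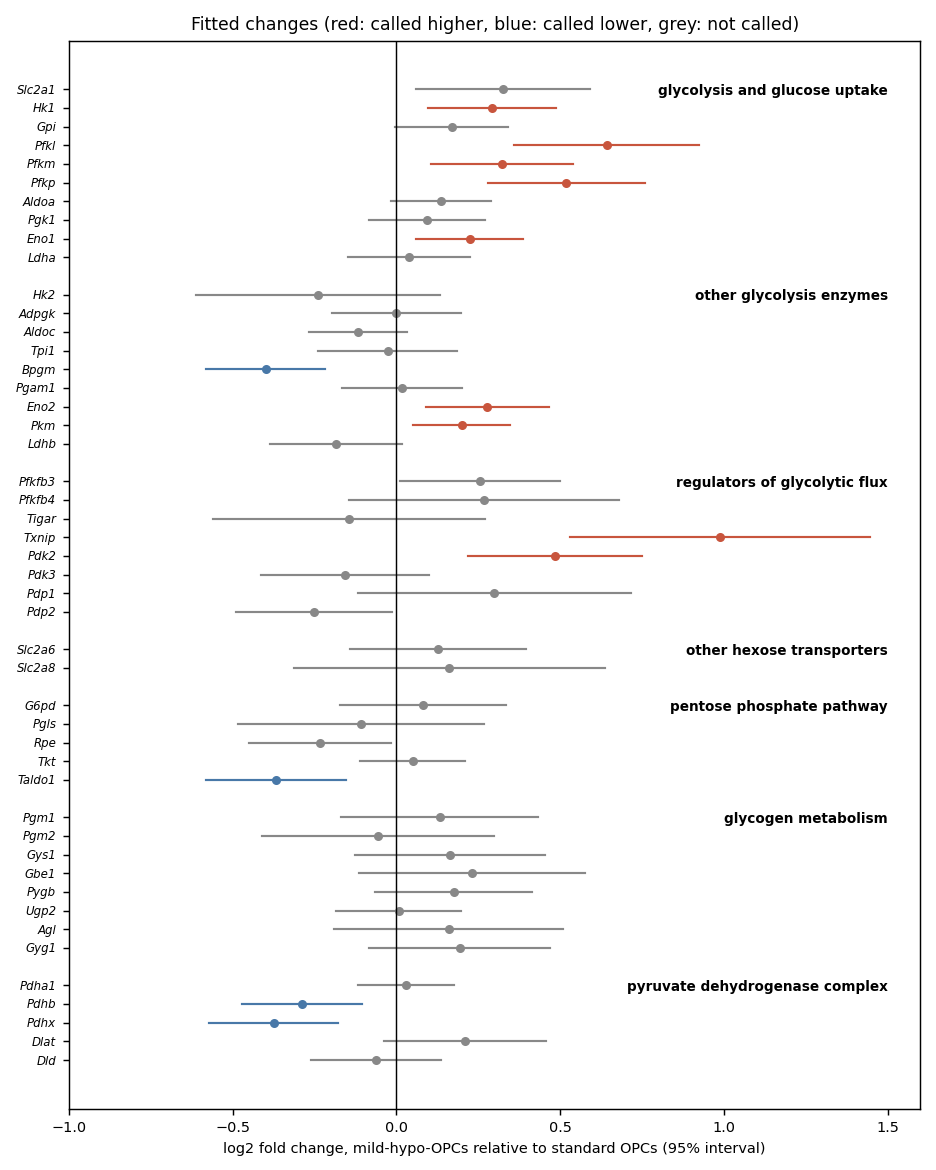
Fitted log2 fold changes with 95% intervals (horizontal axis, mild-hypo-OPCs relative to standard OPCs) for the 10 genes and the 37 other tested genes of glucose metabolism, in red where called higher and in blue where called lower. Pfkl at 0.64 and Pfkp at 0.52 lie farthest right among the 10 genes, and Txnip at 0.99 farthest right of all genes plotted. Txnip passed the filter only through mild-hypo-OPC libraries.

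Several steps are shared by isozymes, and ratios of their counts within a library do not depend on the scaling factors. The ratio of Aldoa to Aldoc, the aldolase of astrocytes and neurons, ran from 1.47 to 1.63 with a median of 1.55 in mild-hypo-OPCs, and the standard OPCs lay between 1.21 and 1.38 with a median of 1.31. The groups did not overlap, and the difference of 0.26 on the log2 scale (standard error 0.04) reached the smallest value that a two-sided exact permutation of 6 against 6 libraries allows (p = 0.00216, and 0.0152 after adjustment over 7 ratios). Neither gene passed alone: Aldoc had a log2 fold change of -0.12 beside 0.14 for Aldoa.

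The ratio of Hk1 to Hk2, the hexokinase known from muscle and from hypoxic cells, was also higher in mild-hypo-OPCs. It ran from 11.5 through 12.1 to 13.9 there and from 6.69 through 7.96 to 12.2 in standard OPCs, so that a single standard OPC library overlapped. The log2 difference was 0.54 (standard error 0.13, exact permutation p = 0.00866, adjusted p = 0.0303). Hk2 rested on 12 to 32 counts a library in standard OPCs, and after thinning all libraries to the smallest total the adjusted exact permutation p was 0.116. It was 0.0606 without mild-hypo-OPC replicate 1, 4 or 6 and without standard OPC replicate 3, 4 or 6. Ldha to Ldhb, the subunit known to favour the return to pyruvate, had values of 2.16, 2.58 and 2.705 (lowest, median and highest) in mild-hypo-OPCs and of 1.90, 2.21 and 2.39 in room air. Most mild-hypo-OPC libraries lay above the standard OPCs and 1 lay among them. The log2 difference was 0.22 (standard error 0.07, exact permutation p = 0.0195, adjusted p = 0.0455), a call that, when each library was left out in turn, stood in 3 sets: those lacking mild-hypo-OPC replicate 5, or replicate 2 or 5 of the standard OPCs. In the other 9 sets the adjusted exact permutation p was 0.0606 to 0.0909.

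The ratio of Eno1 to Eno2, the neuronal enolase, differed by -0.05 (standard error 0.05, exact permutation adjusted p = 0.417). Slc2a3, which encodes GLUT3, had 3 to 8 counts a library in standard OPCs and lay below the filter, so its ratio to Slc2a1 was not tested.

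**Figure D3:**
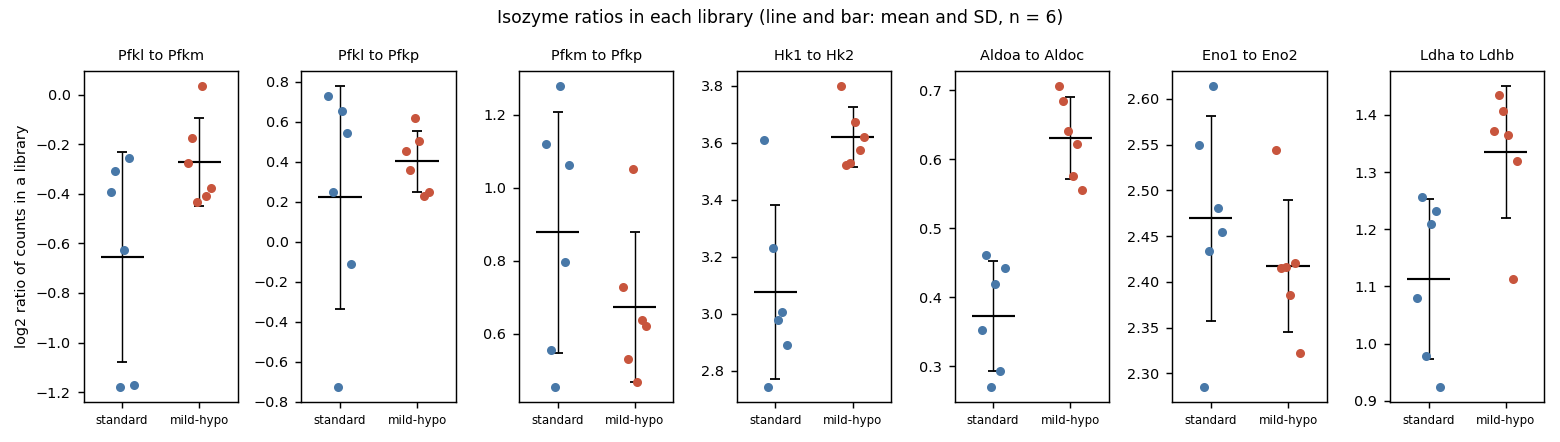
Log2 ratios of the counts of pairs of isozyme genes within each library (vertical axes, not starting at 0), with the mean and SD of 6 libraries a group. The groups are fully apart for Aldoa to Aldoc, and they overlap by 1 library for Hk1 to Hk2 and for Ldha to Ldhb.

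Around the 10 genes, 63 other genes of glucose metabolism were listed, of which 37 were tested, 24 lay below the filter and 2, Gapdh among them, were not analysed here. Of the 37, 4 were higher, 4 were lower and 29 were not called, with a median log2 fold change of 0.03, beside 7.00% higher and 17.0% lower over all genes tested. Each single list rests on few genes, and its count is set against the same shares. Among the other glycolysis enzymes, 2 of 9 tested were higher and 1 was lower, with a median log2 fold change of -0.03. Eno2 ran from 86.6 to 111.7 CPM in mild-hypo-OPCs against 69.0 to 90.1 CPM, with a small overlap (log2 fold change 0.28, edgeR adjusted p = 0.0298, and 0.0759 or 0.0668 without standard OPC replicate 3 or 4). Pkm, the pyruvate kinase that ends the pathway, ran from 442.6 to 509.6 CPM against 376.5 to 453.5 CPM, a log2 fold change of 0.20 that was close to the threshold (edgeR adjusted p = 0.0480). Pkm was lost without mild-hypo-OPC replicate 3, 4 or 6 and without any standard OPC replicate but the first, with edgeR adjusted p up to 0.0995. Bpgm, which diverts an intermediate to 2,3-bisphosphoglycerate, went the other way, with every mild-hypo-OPC library below every standard OPC library, as in 5.40% of all genes tested. It ran from 71.2 to 86.1 CPM against 88.7 to 122.1 CPM, a log2 fold change of -0.40 (edgeR adjusted p = 0.0025).

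Of 8 tested regulators of glycolytic flux, 2 were higher and 0 were lower. Txnip, whose protein promotes the removal of GLUT1 from the cell surface, had the largest difference of the 10 genes and the 37 others. Only mild-hypo-OPC libraries, where it was high, took Txnip over the filter. Its entry into the test thus depended on that group, and its call and rank are descriptive only. It ran from 8.13 through 9.12 to 11.6 CPM in mild-hypo-OPCs, against 3.33, 4.58 and 8.28 CPM in standard OPCs, where it had only 5 to 12 counts a library. The groups touched at 1 standard OPC library, and the log2 fold change was 0.99 (standard error 0.22, edgeR adjusted p = 0.0030). Pdk2, a kinase that switches off the pyruvate dehydrogenase complex, ran from 27.6 to 41.3 CPM against 19.9 to 29.1 CPM (log2 fold change 0.48, edgeR adjusted p = 0.0094). The complex itself, which carries pyruvate into mitochondrial oxidation, had 2 of 5 tested genes lower and 0 higher. Pdhx had every mild-hypo-OPC library below every standard OPC library, as in 5.40% of all genes tested. The groups nearly touched, at 62.7 to 75.8 CPM against 76.1 to 105.3 CPM (log2 fold change -0.37, edgeR adjusted p = 0.0072). Pdhb stood at -0.29 with overlap (edgeR adjusted p = 0.0220). Pdhb lost its call, with edgeR adjusted p up to 0.0831, on leaving out replicate 1, 2, 5 or 6 of the mild-hypo-OPCs or replicate 5 of the standard OPCs. The calls of lower genes were relative to the median gene: with library size as the only scaling, the median of all genes moved to 0.43, and Pdhx stood at 0.06, Pdhb at 0.15 and Bpgm at 0.04.

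In the pentose phosphate pathway, which branches off at glucose 6-phosphate, 1 of 5 tested genes was lower and 0 were higher. This was Taldo1, the gene of transaldolase, at a log2 fold change of -0.37 (edgeR adjusted p = 0.0133, and 0.0543 without mild-hypo-OPC replicate 1), and at 0.07 with library size only. None of 8 tested genes of glycogen metabolism and none of 2 other hexose transporters passed with edgeR. Ugp2, the glycogen gene with the highest counts, stood at 0.01 (edgeR adjusted p = 0.969), and the transporter gene Slc2a6 at 0.13 (edgeR adjusted p = 0.503).

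For each of the 5 genes called higher, the 3 tested genes with the most similar profile were found by the root mean square difference of centred log2 CPM over the 12 libraries. They were Taok2, Slc6a6 and Pdcd6ip for Hk1 (0.07 to 0.08), Col9a3, Prrc1 and Mmut for Pfkl (0.13 to 0.16), and Irf2bp1, Zswim1 and Mboat7 for Pfkm (0.11 to 0.12). For Pfkp they were Hcn2, Arhgap23 and Slc7a1 (0.10 to 0.13), and for Eno1 the actin genes Actb and Actg1 with Gna12 (0.06 to 0.07). Small values mean a close profile, and a gene with little spread of its own reaches them more easily.

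Total counts ranged between 4111669 and 9022324 after mild hypoxia and between 1356079 and 2797513 in room air, and the 10 genes took a median of 0.194% and 0.124% of them. After TMM scaling, with factors of 1.08 to 1.23 and 0.809 to 0.945, their summed level was 1542 to 1720 CPM and 1248 to 1544 CPM, ranges that touch at the edge. All 6 OPC markers were tested and 0 were called, with summed levels of 2550 to 2868 CPM against 2271 to 2843 CPM. The mature oligodendrocyte markers Mag and Cnp moved with the groups and did not overlap between them, Mag at 638.4 to 724.6 CPM against 373.6 to 607.9 CPM and Cnp at 1939 to 2206 CPM against 1450 to 1875 CPM. Of the astrocyte markers, 2 of 5 tested were higher (Aqp4 and Slc1a3), and their sum was 586.6 to 702.4 CPM against 520.5 to 585.5 CPM. The other 3 overlapped and were not called, at log2 fold changes of 0.12 for Gfap, 0.09 for Gja1 and -0.27 for Slc1a2. Of the neuronal markers 1 of 3 tested was higher (Tubb3), with a sum of 127.1 to 145.6 CPM against 71.3 to 110.9 CPM. Tubb3 alone had 92.5 to 110.4 CPM against 50.6 to 77.6 CPM, while Syt1 and Stmn2 overlapped and were not called. Snap25 and Rbfox3 lay below the filter, at means of 6.52 against 6.09 CPM and 2.67 against 3.36 CPM. Of the microglial markers 1 of 2 tested was higher (Csf1r), with a sum of 33.1 to 45.9 CPM against 12.9 to 33.3 CPM. C1qa was not called, and the others lay below the filter. Among those, Aif1 had a lower mean in mild-hypo-OPCs, 1.87 against 3.13 CPM, while Cx3cr1, P2ry12, Itgam and Tmem119 had higher means there. Over all genes tested, 7.00% were called higher. Endothelial and mesenchymal markers summed to at most 2.49 CPM in any library, and Lum was at 0 in all. The part of these cell types in the differences was not tested, and in such bulk libraries more cells of a type and more RNA per cell cannot be told apart.

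The direction of the 10 genes held under most settings and their calls did not. With library size only, all 10 were called higher, as were 5515 of the 8938 genes tested. The median of all genes moved to 0.43 and that of the 10 genes to 0.70, a distance of 0.27 against 0.26 with TMM factors. Upper-quartile factors called 8, DESeq2 6 and limma-voom 5. Over all genes tested, these fits called 1136, 795 and 569 higher. The libraries numbered 1 to 3 gave 0 calls with edgeR, with 4 at an unadjusted p under 0.05, and those numbered 4 to 6 gave 3. Over all genes tested, 53 were called higher in the libraries numbered 1 to 3 and 569 in those numbered 4 to 6. Leaving out standard OPC replicate 2, 3, 4 or 5 left 3 calls each, with 710, 460, 465 and 436 genes called higher over all tested. Every fit had 0 calls of a lower gene among the 10, and all 10 estimates were positive in 23 of the 25 fits, the exceptions being Ldha in the libraries numbered 4 to 6 and Hk1 with the total count as a covariate.

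**Figure D4:**
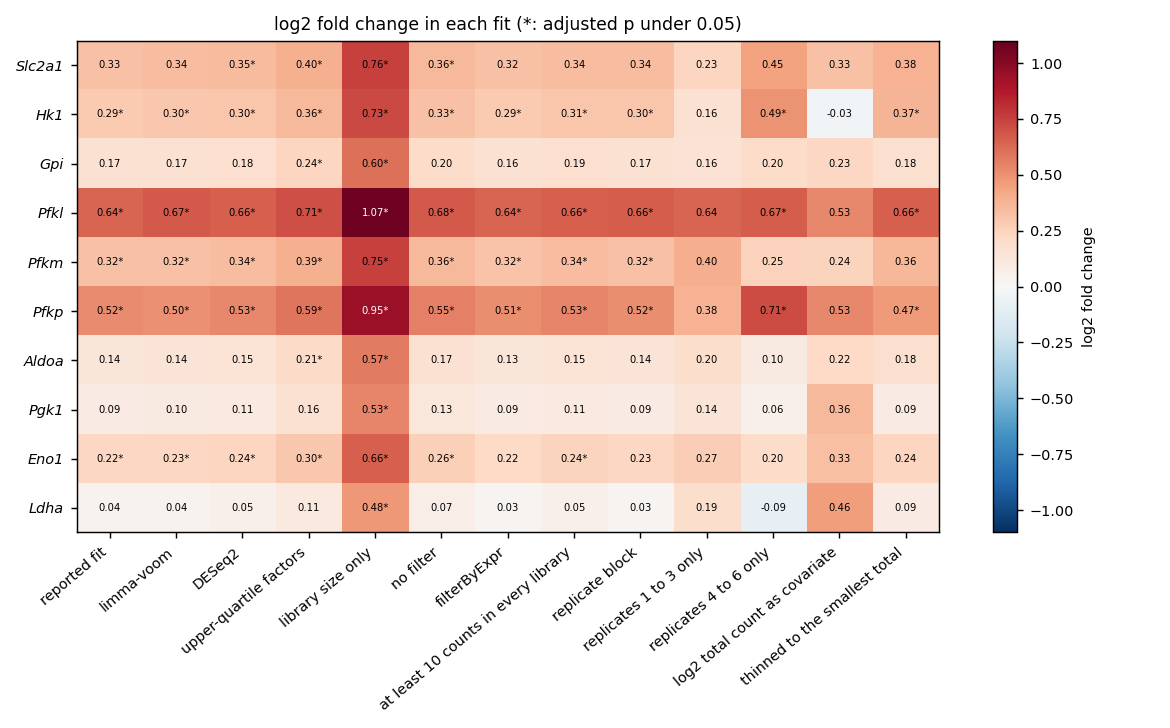
Log2 fold change of each of the 10 genes (rows) in the reported fit and in 12 alternatives (columns), printed in each cell, with an asterisk where the adjusted p is under 0.05. Pfkl and Pfkp are marked in 11 of the 13 columns and Hk1 in 11, and the column with the total count as a covariate has no asterisk.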

How the data were processed

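RNA of 12 OPC libraries was sequenced as strand-specific paired-end libraries. According to the submitters' processing notes the authors used Trimmomatic 0.36, FastQC 0.11.9, STAR 2.7.9a and RSEM 1.3.3 with the rat genome mRatBN7.2, and the deposited values are raw whole-number counts for each Ensembl gene. Groups and replicate numbers came from the labels. How the RSEM estimates were made whole is not given in the sources used here.

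From the counts, 8938 of 30562 genes passed the study's filter, a CPM over 10 in any library, and edgeR 4.0.16 in R 4.3.3 was run with TMM factors, glmQLFit and glmQLFTest, no covariate, and a Benjamini-Hochberg threshold of 0.05. The study itself fitted limma-voom, which served here as an alternative (limma 3.58.1), as did DESeq2 1.42.0, other scaling and filters, a replicate block, subsets of libraries, a depth covariate and thinning. Isozyme ratios (0.5 added to each count) were tested by two-sided exact permutation over 924 arrangements in SciPy 1.17.1. The 10 genes, the other lists and the tests were chosen with earlier results of these data known. Named were the 10 genes, called genes of the lists, the most counted gene of a list without calls, and the 3 genes closest in profile to each called gene. Gapdh and the few other genes named from markers or isozyme pairs were named as list members. All 15 pairs of libraries within each group differed beyond sampling noise (lowest chi-square over its degrees of freedom 3.22), so none was merged. The method was tested on simulated counts. Promoters came from a RefSeq table of GRCr8, matched by symbol. Intervals do not cover the unequal depth. The count and summed level of the mature oligodendrocyte marker list are not reported here.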

Additional observations from a re-analysis of the deposited data

Results flagged for a closer look

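Of 60 groups of 6 libraries tested for a library standing apart, 2 were found by Dixon's criterion, which chance alone meets in about 1 group in 20. Standard OPC replicate 2 had the highest Hk2 level of its group, 16.9 CPM, and its gap to the next library was 0.633 of the range, above the critical 0.625. Mild-hypo-OPC replicate 5 had the lowest log2 ratio of Ldha to Ldhb of its group, 1.11, with a gap of 0.642 of the range. The cause of neither was tested.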

How the results depend on the processing

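Of the 10 genes, 8 were called higher with upper-quartile factors, 10 with library size only, 0 in the libraries numbered 1 to 3, 3 in those numbered 4 to 6, 0 with the total count as a covariate and 3 after thinning. Leaving out 1 library gave 3 to 6. Over all genes, 1136 were higher with upper-quartile factors, 5515 were higher and 405 lower with library size only, 53 and 343 in the libraries numbered 1 to 3, 0 and 43 with the covariate (217 and 488 at an unadjusted p under 0.05, edgeR), and 397 higher after thinning. Leaving out 1 library gave 436 to 823 higher and 1165 to 1664 lower genes. The ratio differences ranged on leaving out 1 library from 0.48 to 0.65 for Hk1 to Hk2, from 0.18 to 0.27 for Ldha to Ldhb and from -0.011 to 0.28 for Pfkl to Pfkp, negative without standard OPC replicate 3. The Hk1 to Hk2 difference after thinning was 0.54 and did not pass. The cause of these shifts was not tested.

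No pairing of the libraries by replicate number was seen: the correlation of deviations within a number ran from -0.276 to 0.296, and 1 of 6 libraries correlated best with its own number. So few correlations cannot exclude a pairing. With the replicate block, 4 of the 10 genes were called higher and 0 lower (Eno1 had an edgeR adjusted p of 0.0552), with 572 genes higher and 1471 lower in all. Paired sign flips of the ratios left differences of 0.54 for Hk1 to Hk2, 0.26 for Aldoa to Aldoc and 0.22 for Ldha to Ldhb, none of which passed (adjusted exact p = 0.109, 0.109 and 0.146). Sign flips of 6 pairs give an unadjusted p of 0.0312 at the smallest, which Hk1 to Hk2 and Aldoa to Aldoc both reached, and over 7 ratios this falls under 0.05 only if 5 or more reach it, so these adjusted values say nothing of stability.

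Signs turned as follows. With the covariate, Hk1 stood at -0.028, Taok2 at -0.18, Slc6a6 at -0.18, Pdcd6ip at -0.018, Ugp2 at -0.11, Taldo1 at 0.24, Aldoc at 0.020 and Ldhb at 0.25. With library size only, Bpgm stood at 0.040, Taldo1 at 0.075, Pdhb at 0.15, Pdhx at 0.062, Hk2 at 0.19, Aldoc at 0.32 and Ldhb at 0.26. Ldha was at -0.090 in the libraries numbered 4 to 6. Of the ratio differences that had not passed, Pfkl to Pfkp was -0.034 in the libraries numbered 4 to 6, and in those numbered 1 to 3 Pfkm to Pfkp was 0.059 and Eno1 to Eno2 0.036. Ugp2 was at -0.037 in those numbered 1 to 3, at -0.0095 after thinning, and between -0.049 and 0.066 on leaving out 1 library, negative without standard OPC replicate 3, 4 or 6. Depth limits the least counted genes, since the lowest of the 10 had 17 to 48 counts in a standard OPC library.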
